A study of Mus musculus with 6 samples.

Results

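The genes described here are the receptor genes of cytokines that signal through STAT3, Stat3 itself and the SOCS genes that restrain it, in leukocyte-enriched cells of serrated polyps of the mouse cecum. They were chosen by gene symbol: Stat3, Socs1, Socs2, Socs3, Il6ra, Il6st, Il11ra1, Osmr, Il10ra and Il22ra1, 10 genes in all. The array carried 11 probes for 9 of them, and Il11ra1 had no probe under that symbol. The detection p-value of a probe says how often background alone would give a signal at least as high. A probe was tested if this value was under 0.05 on at least 3 of the 6 arrays. By that rule 10 probes of 8 genes were tested, among 13409 probes and 9246 named genes in all.

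The samples came from 3 mice of the HBUS strain, each of which gave cells from a serrated polyp and cells from the normal cecum around it, so that 3 polyp samples stand against 3 surrounding samples in pairs. HBUS mice are known as a transgenic line that expresses the EGF receptor ligand HB-EGF and the viral chemokine receptor US28 in gut epithelium. The labels give the strain name alone, with no age or treatment, and both groups are of this strain, so no mouse without the transgenes was compared. Epithelium was loosened with EDTA, the rest was digested with dispase, and cells bearing CD45, a protein on the surface of leukocytes, were held on magnetic columns. RNA of each sample went to 1 array of an Illumina mouse BeadChip.

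Cytokines of the IL-6 family, such as IL-6, IL-11 and oncostatin M, bind receptors in which a further chain (Il6ra, Il11ra1, Osmr) joins the shared chain gp130, encoded by Il6st. IL-10 and IL-22 use the chains Il10ra and Il22ra1 with the common partner Il10rb. All of these receptors activate JAK kinases, which phosphorylate STAT3, and STAT3 then switches on target genes, among them Socs3, whose product blocks the kinase and gp130. In the gut IL-22 acts on epithelium, where STAT3 drives antimicrobial proteins and repair, IL-6 acts on epithelium and T cells, and IL-10 acts on macrophages and lymphocytes.

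STAT dimers bind the palindrome TTCNNNGAA, which reads the same on both strands. Promoter sequences of RefSeq (GRCm38.p6, from 250 bases before to 50 bases after the start) were at hand for 8 of the 10 genes, as 9 promoters, and the palindrome stood in 1 of them, that of Socs3. Over all 32851 promoters of the table it stood in 8.30%. It stood in 5 of 81 promoters of the other pathway genes described further on, among them those of Reg3b and Icam1. These 3 stretches are shown because Socs3 had the widest differences among the 8 tested genes, Reg3b the largest rise among the pathway genes, and Icam1 the sign pattern of Socs3. Capitals mark the palindrome.
Socs3: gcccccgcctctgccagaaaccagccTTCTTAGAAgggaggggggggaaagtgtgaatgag
Reg3b: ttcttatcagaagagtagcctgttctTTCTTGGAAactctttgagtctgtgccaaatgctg
Icam1: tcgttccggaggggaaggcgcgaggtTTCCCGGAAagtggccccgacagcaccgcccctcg
The Socs3 stretch lies at chr11:117969486-117969546 on the minus strand, with the palindrome from 154 to 146 bases before the start of the gene. The Reg3b stretch lies at chr6:78370730-78370790 on the plus strand, with the palindrome from 129 to 121 bases before the start, and the Icam1 stretch at chr9:21015872-21015932 on the plus strand, with the palindrome from 42 to 34 bases before the start. A match of letters is not evidence that a factor binds there.

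All 6 arrays lay on 1 chip, and between 49.3% and 53.7% of their 25697 probes were detected, with the lowest share in the polyp sample of mouse 3. With 3 arrays to a group, their number limits how precise these values are. Ptprc, which encodes CD45, was lower in polyp samples by -0.99 ± 0.11 at its brightest probe (SE, n = 3 pairs, limma adjusted p = 0.0052), and a dimmer probe did not pass (-0.42, limma adjusted p = 0.0986). The dimmer probe was detected on 0 polyp and 3 surrounding arrays and was tested through the surrounding ones alone. The brightest was detected on 2 polyp and 3 surrounding arrays, at raw intensities of 94.7 to 130.3 against 132.1 to 157.7. Its change was -0.35 in the authors' processed values, so its size is uncertain. Markers were counted at a limma adjusted p under 0.05, at which 5% of all tested genes rose and 6.46% fell. Of the markers tested, 7 of 7 of T cells and 6 of 6 of B cells fell. Those of endothelial cells rose in 7 of 7, of neutrophils in 5 of 8 and of epithelial cells in 2 of 7. Of macrophage markers 0 of 6 passed, and of fibroblast markers 0 of 8. All 6 macrophage markers lay below 0 with a limma unadjusted p under 0.05, which 28.9% of all tested genes had. Fibroblast markers lay 4 above 0 and 4 below, and 0 of them had such a p-value. The B cell marker Ms4a1 was detected on 0 polyp and 3 surrounding arrays and was tested through the surrounding ones alone. Epithelial markers had a mean level of 11.1 to 11.2 in polyp samples, against 10.9 in surrounding samples, on the normalised log2 scale, so the samples held RNA of more than leukocytes.

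None of the 8 tested genes of this group passed the test between polyp and surrounding cells (limma, 0 of 8 with an adjusted p under 0.05), while 11.5% of the 9246 tested genes did. At an unadjusted p under 0.05, 1 of the 8 passed, Il10ra, while 28.9% of all tested genes did. Their changes, polyp minus surrounding on the log2 scale, ran from -0.42 for Socs3 to 0.14 for Il6st, 4 above 0 and 4 below, with a median of -0.01. The median over all tested genes was 0.02. Polyp and surrounding values overlapped in all 8, whereas they did not overlap in 20.2% of all tested genes. The median change of the 8 in the single mice was 0.06, -0.01 and -0.12 for mice 1, 2 and 3. A missed threshold does not show equal levels, and the 95% interval of each change is given with it. Without mouse 1, 1 of the 8 passed, Socs3, as described with its values below.

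**Figure D1:**
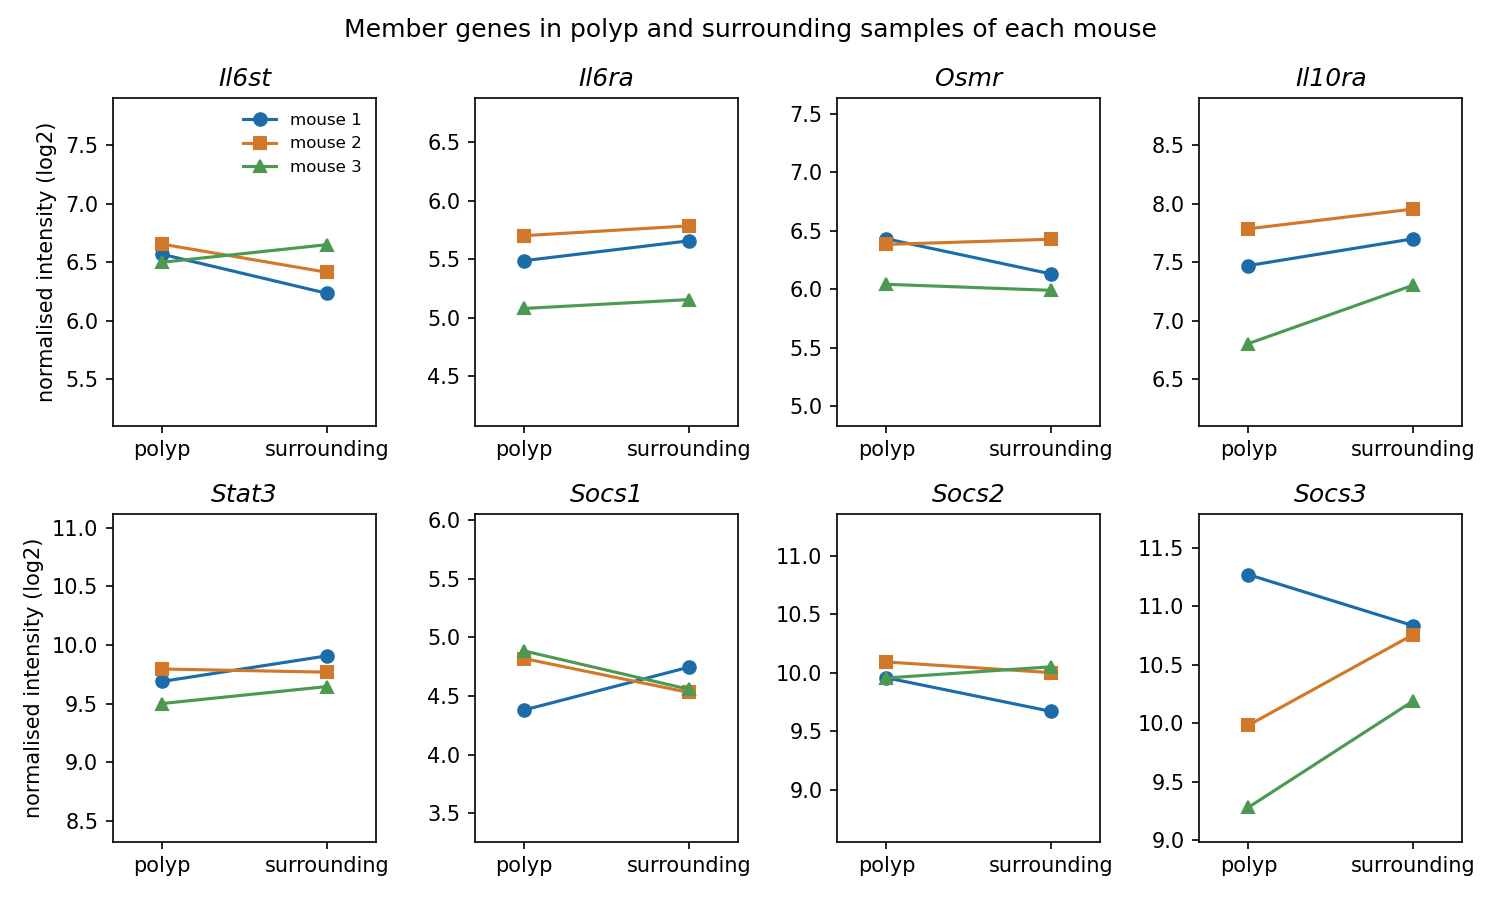
Normalised log2 intensity of the 8 tested genes, each at its brightest tested probe, in polyp samples (left) and surrounding samples (right), with a line and symbol for each mouse. All panels span the same height on the log2 scale, and the polyp values of Socs3 lie farthest apart, with mouse 1 at 11.27 and mouse 3 at 9.28.

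The shared receptor chain gp130 was measured by 1 Il6st probe, detected on all arrays. On the normalised log2 scale it had values of 6.57, 6.66 and 6.50 in polyp cells of mice 1, 2 and 3, against 6.24, 6.42 and 6.65 in surrounding cells, and the values of the other genes follow in the same order of mice. The polyp sample was the higher of the pair in mice 1 and 2 and the lower in mouse 3. The change was 0.14 ± 0.12 (SE, n = 3 pairs, limma adjusted p = 0.503), with a 95% interval from -0.16 to 0.44.

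Il6ra, the chain that binds IL-6, had values of 5.49, 5.70 and 5.08 in polyp samples, against 5.66, 5.78 and 5.15 in surrounding samples. Each polyp sample was slightly below its partner, by -0.17, -0.08 and -0.08, but mouse 3 was lower than both other mice in either tissue. The change was -0.11 ± 0.09 (SE, n = 3 pairs, limma adjusted p = 0.474), with an interval from -0.33 to 0.11. The probe was detected on all 6 arrays but was dim, with raw intensities of 103.2 to 141 in polyp and 117.1 to 136.4 in surrounding samples. Its change was -0.04 in the authors' processed values, so its size is uncertain. Of the variation of Il6ra over the 6 arrays, measured as sums of squares, 95.3% lay between mice and 4.1% between the tissues.

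Osmr encodes a receptor chain for oncostatin M that stromal, endothelial and epithelial cells carry more than leukocytes do. Its values were 6.43, 6.38 and 6.04 in polyp samples, against 6.13, 6.43 and 5.99 in surrounding samples. The groups overlapped, with the polyp sample higher in mice 1 and 3 and lower in mouse 2. The change was 0.10 ± 0.11 (SE, n = 3 pairs, limma adjusted p = 0.576), with an interval from -0.15 to 0.36. Endothelial markers rose in the same samples, with a mean level of 7.80 to 8.34 in polyp samples, against 7.08 to 7.37 in surrounding samples. Fibroblast markers had a mean level of 6.03 to 6.38 against 6.04 to 6.57, and epithelial markers 11.1 to 11.2 against 10.9. The part of any of these cells in the Osmr signal was not tested.

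Il10ra, the ligand-binding chain of the IL-10 receptor on leukocytes, came nearest to the threshold. Its values were 7.47, 7.79 and 6.81 in polyp samples, against 7.70, 7.96 and 7.31 in surrounding samples. The polyp sample was the lower of the pair in every mouse, by -0.23, -0.17 and -0.50, yet the groups overlapped because mouse 3 was lowest in both. The change was -0.30 ± 0.10 (SE, n = 3 pairs, limma unadjusted p = 0.029 and adjusted p = 0.134), with an interval from -0.55 to -0.04. T cell markers had a mean level of 5.96 to 7.03 in polyp samples, against 7.03 to 8.76 in surrounding samples, B cell markers 5.23 to 5.73 against 7.03 to 7.91, and macrophage markers 7.92 to 9.93 against 9.31 to 10.1. Neutrophil markers went the other way, at 7.79 to 8.20 against 6.39 to 7.06. The part of these cell types in the Il10ra values was not tested. In such mixed samples fewer cells of a type cannot be told apart from less RNA per cell.

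Il22ra1, the receptor chain for IL-22 on epithelial cells, was not detected on any array, with detection p-values of 0.06 and above. Its raw intensities were between 88.2 and 104.6 in polyp samples, against 99.6 to 102.7 in surrounding samples, close to the array medians of 97.3 to 109.3. No level or change can be given for it. Il22 itself was not detected on any array either, and Il22ra2, the soluble receptor that captures IL-22, was detected on 0 polyp arrays and 1 surrounding array.

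Stat3 was measured by 3 probes, all detected on every array. At the brightest, its values were 9.69, 9.80 and 9.50 in polyp samples, against 9.91, 9.77 and 9.64 in surrounding samples. The groups overlapped, with the polyp sample lower in mice 1 and 3. The change was -0.11 ± 0.10 (SE, n = 3 pairs, limma adjusted p = 0.502), with an interval from -0.35 to 0.12. The other probes gave -0.09 and -0.22 and did not pass (limma adjusted p = 0.657 and 0.352), and the dimmest of the 3 had its highest value, 7.54, in the surrounding sample of mouse 1. The 3 genes whose values followed Stat3 most closely over the 6 arrays, out of 9246, were Cnpy3, Ccnd2 and Rnf220, with Pearson correlations of 0.991, 0.989 and 0.983. These arrays share mice in pairs, and 19 genes had a correlation above 0.95.

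Socs1, a strong inhibitor of JAK kinases that interferon gamma also induces, was dim and was detected on 2 of 3 arrays in each group. Its values were 4.38, 4.82 and 4.88 in polyp samples, against 4.75, 4.53 and 4.56 in surrounding samples. The polyp sample was lower in mouse 1 and higher in mice 2 and 3. The change was 0.08 ± 0.16 (SE, n = 3 pairs, limma adjusted p = 0.771), with an interval from -0.30 to 0.47, and it lay at -0.02 without mouse 2 and at -0.04 without mouse 3.

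Socs2, best known as a brake on growth hormone signalling through STAT5, was bright and even. Its values were 9.96, 10.09 and 9.95 in polyp samples, against 9.67, 9.999 and 10.05 in surrounding samples. All but the surrounding sample of mouse 1 lay between 9.95 and 10.09. The change was 0.09 ± 0.11 (SE, n = 3 pairs, limma adjusted p = 0.62), with an interval from -0.17 to 0.36.

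Socs3, the STAT3-induced inhibitor of gp130 signalling, differed most between mice. Its values were 11.27, 9.98 and 9.28 in polyp samples, against 10.83, 10.76 and 10.19 in surrounding samples. The polyp samples of mice 1 and 3 were the highest and the lowest of the 6 arrays, and the polyp sample was above its partner in mouse 1 by 0.44 and below it in mice 2 and 3, by -0.77 and -0.91. The change was -0.42 ± 0.26 (SE, n = 3 pairs, limma adjusted p = 0.356), with an interval from -1.05 to 0.22. Without mouse 1 it was -0.84 ± 0.12 and passed the test (limma adjusted p = 0.0024), a fit that rests on 2 pairs, while without mouse 2 it was -0.23 and without mouse 3 -0.17, and neither passed (limma adjusted p = 0.762 and 0.779). The range of its difference over the 3 mice, 1.34, was exceeded by 1.6% of all tested genes. The corresponding range was 0.69 for Socs1 and 0.09 for Il6ra, which 11.2% and 92.8% of all tested genes exceeded.

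**Figure D2:**
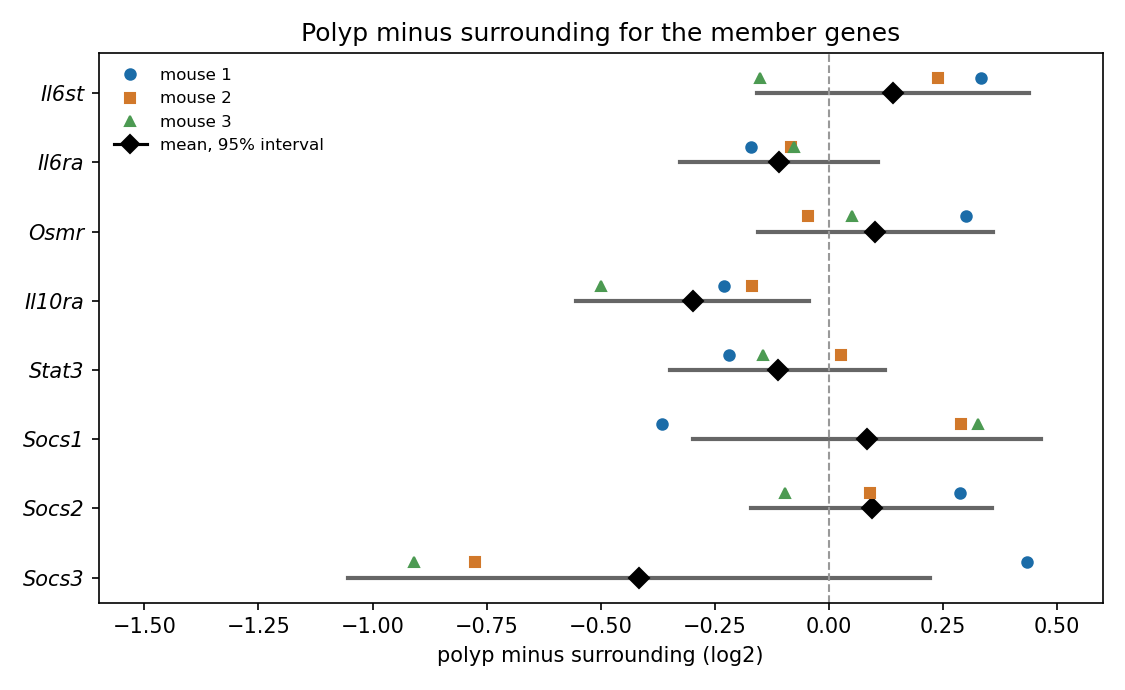
Polyp minus surrounding on the log2 scale for the 8 tested genes. Diamonds are means of 3 pairs with 95% intervals from limma, and coloured symbols are the single mice. Every interval but that of Il10ra (-0.55 to -0.04) takes in 0, and the interval of Socs3 is the widest.

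Over the 8 genes, as over all tested genes, differences between mice took up more of the variation than the tissue. The share of the sums of squares between mice had a median of 66.4% for the 8, against 54% over all tested genes, and the share between polyp and surrounding samples a median of 11.1%, against 19.9%. Tissue was the largest of the 3 parts (mouse, tissue and remainder) for 0 of the 8 genes, and for 2557 of the 9246. A term for 3 mice can take up more than a term for a pair of tissues, so the shares are read against those of all genes only. The highest tissue share of the 8 was that of Il6st, 23.2%.

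Other genes of the pathway were read from a list of 84, drawn up with earlier results of these data known. Of these, 61 were tested. In polyp samples 10 rose and 3 fell, or 21.3% in either direction, while 5% of all tested genes rose and 6.46% fell. With arrays scaled to 1 median in place of quantile normalization, 10 rose and 7 fell, the added falls being Il10, Stat2, Cish and Icam1. In that fit limma gave every gene the same SE, 0.179, so a gene's own spread between mice did not count. The median change of the 61 was -0.04. The 13 that passed were 10 of 28 target genes, 2 of 6 other receptor chains and 1 of 4 other STATs, and 0 of 7 ligands, 0 of 5 kinases and 0 of 11 other inhibitors passed. At an unadjusted p under 0.05, 2 of the 7 ligands, 2 of the 5 kinases and 5 of the 11 inhibitors did, against the 28.9% of all tested genes. In a model without a mouse term 7 of the 61 passed, and without mouse 1, 22 did.

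**Figure D3:**
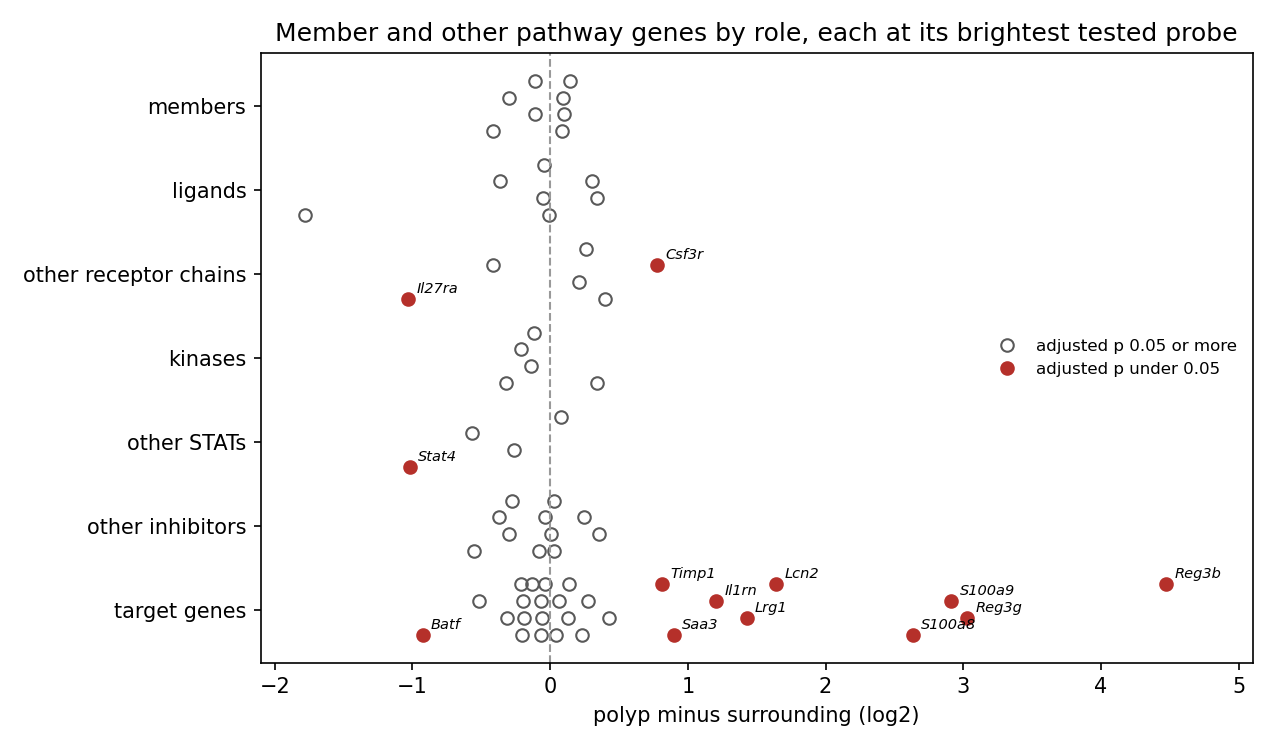
Polyp minus surrounding on the log2 scale (horizontal axis) for the 8 tested member genes and 61 other pathway genes, in rows by role, each at its brightest tested probe. Filled points passed the test (limma adjusted p under 0.05) and are named: 9 target genes and Csf3r to the right of 0, and Batf, Il27ra and Stat4 to the left.

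Among the ligands, Il6 had values of 6.19, 4.77 and 4.54 in polyp samples, against 5.44, 5.51 and 5.65 in surrounding samples, and was detected on 2 polyp and 3 surrounding arrays. Its polyp values lay on both sides of the surrounding ones, and the change was -0.37 ± 0.34 (SE, n = 3 pairs, limma adjusted p = 0.532). Il10, which restrains macrophages and T cells, had values of 8.99, 5.20 and 4.54 in polyp samples, against 8.81, 7.93 and 7.34 in surrounding samples. It was detected on 2 polyp and 3 surrounding arrays, and was lower in the polyp samples of mice 2 and 3 and not in that of mouse 1. The change of -1.78 ± 0.57 did not pass (SE, n = 3 pairs, limma adjusted p = 0.111). On the polyp array of mouse 3 both genes were below detection, with detection p-values of 0.09 for Il6 and 0.08 for Il10, so their size there is uncertain. Both genes passed in the fit without mouse 1 (limma adjusted p = 0.00248 and 8.91e-06), which rests on 2 pairs, one of them that of mouse 3. Both groups overlapped for Osm, at 10.87, 9.93 and 9.03 in polyp samples, against 9.58, 9.99 and 9.35 in surrounding samples (limma adjusted p = 0.557). Il11, a fibroblast-derived member of the family, was higher in the polyp sample of every mouse after normalization, with a change of 0.34 ± 0.10 that did not pass (SE, n = 3 pairs, limma adjusted p = 0.0847). Its raw intensities, 106.5 to 120.5 in polyp and 104.6 to 116.3 in surrounding samples, lay near background. In mouse 3 the raw polyp value was the lower, 106.5 against 114.3. The Il11 change was 0.10 in the authors' processed values, so its size is uncertain.

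Of the other receptor chains, Csf3r, the receptor for the neutrophil growth factor G-CSF, had values of 6.30, 6.63 and 6.23 in polyp samples, against 5.62, 5.94 and 5.27 in surrounding samples. It rose by 0.78 ± 0.10 (SE, n = 3 pairs, limma adjusted p = 0.00964), in samples whose neutrophil markers, a list that holds Csf3r itself, had a mean level of 7.79 to 8.20, against 6.39 to 7.06 in surrounding samples. Il27ra, the IL-27 receptor chain of lymphocytes, had values of 7.36, 7.19 and 7.44 in polyp samples, against 8.61, 8.37 and 8.10 in surrounding samples. It fell by 1.03 on the log2 scale (limma adjusted p = 0.0107), in the samples whose T and B cell markers were lower. The groups did not overlap for either gene, and the part of cell numbers was not tested. Il10rb, the partner chain of the IL-10 and IL-22 receptors, was higher in every mouse by 0.21 ± 0.10 and did not pass (SE, n = 3 pairs, limma adjusted p = 0.233), and Lifr, the receptor chain for LIF, had no tested probe.

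The kinases that these receptors share gave small differences. Jak1 changed by -0.21 ± 0.16, Jak2 by -0.14 ± 0.11 and Tyk2 by -0.12 ± 0.09, and none passed (SE, n = 3 pairs, limma adjusted p from 0.451 to 0.458). The 1 Jak1 probe lay near background, with raw intensities of 102.9 to 112.6 in polyp and 113.3 to 119.9 in surrounding samples. Its small difference therefore says little about Jak1. Stat4, the STAT of IL-12 signalling in T and NK cells, had values of 7.22, 6.56 and 6.03 in polyp samples, against 8.14, 7.66 and 7.06 in surrounding samples. It fell in each mouse and by 1.02 on the log2 scale in the mean (limma adjusted p = 0.00357), although the groups overlapped.

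Of 28 known target genes of STAT3, 9 rose and 1 fell, while 5% of all tested genes rose and 6.46% fell. These target genes were listed with earlier results of these data known, so the count does not test STAT3 activity. Reg3b, which encodes an antibacterial lectin of the gut lining, had values of 11.95, 12.93 and 11.76 in polyp samples, against 6.95, 9.54 and 6.74 in surrounding samples. Its relative Reg3g had 7.22, 8.29 and 7.64 in polyp samples, against 4.47, 5.07 and 4.54 in surrounding samples, where it was detected on 1 array, and the calprotectin subunit S100a9 had 10.9, 10.7 and 10.8 against 7.68, 8.80 and 7.14. The groups did not overlap for any of the 3, and the changes were 4.47, 3.03 and 2.91 (limma adjusted p = 0.00247, 0.0012 and 0.00544). A dimmer Reg3b probe gave a smaller change of 1.24 (limma adjusted p = 0.018). It was detected on 3 polyp and 0 surrounding arrays, and so was tested through its polyp arrays alone. Reg3g was tested through its polyp arrays, its surrounding values lay near background, and its log2 change was 1.48 in the authors' processed values, which keep the background, so its size is uncertain. The other target genes that rose were S100a8, Lcn2, Lrg1, Il1rn, Saa3 and Timp1, with changes from 0.81 to 2.63. Saa3 and Timp1 did not pass without the filter on dim probes (limma adjusted p = 0.0991 and 0.0713) or without mouse 2 (0.128 and 0.111), nor Saa3 and Il1rn without mouse 3 (0.132 and 0.0613). S100a8 and S100a9 did not pass with a trended, robust prior (limma adjusted p = 0.0828 and 0.0678). In the model without a mouse term Lcn2, Saa3, Timp1, Batf, Csf3r and Stat4 did not pass (limma adjusted p from 0.104 to 0.302). Batf, a transcription factor of activated lymphocytes, fell by 0.93 on the log2 scale (limma adjusted p = 0.00799), and 18 of the 28 target genes did not pass. S100a8 and S100a9 are also neutrophil markers, and most of these genes respond to other signals besides STAT3.

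The sign pattern of Socs3, above 0 in mouse 1 and below 0 in mice 2 and 3, was looked for in the other genes after its values were seen. It was found in 17 of the 61 pathway genes, or 27.9%, in Socs3 alone of the 8 tested member genes and in 8.96% of all tested genes. Some of the 17 met it by differences near 0, such as 0.0027 for Fut2 in mouse 1 and -0.017 for Vegfa in mouse 3. For Osm it held at the brightest probe only, with -0.05 in mouse 2, while a dimmer probe gave 1.31, 0.21 and -0.45 in mice 1, 2 and 3. Besides Il6, Il10 and Osm the pattern was seen in Icam1, an adhesion molecule on activated cells. Icam1 was at 10.2, 8.51 and 7.87 in polyp samples, against 9.70, 9.50 and 8.97 in surrounding samples. The monocyte receptor Cd14 had 11.8, 10.8 and 9.97 in polyp samples, against 10.7, 10.8 and 10.2 in surrounding samples. For Il6, Il10, Osm, Icam1 and Cd14 the polyp sample of mouse 1 held the highest of the 6 values. Macrophage markers differed between the tissues of a mouse by -0.15, -0.66 and -1.4 on average in mice 1, 2 and 3, and neutrophil markers by 1.54, 0.95 and 1.4. The part of either cell type in the pattern was not tested, and with 3 mice the pattern has no replicate.

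**Figure D4:**
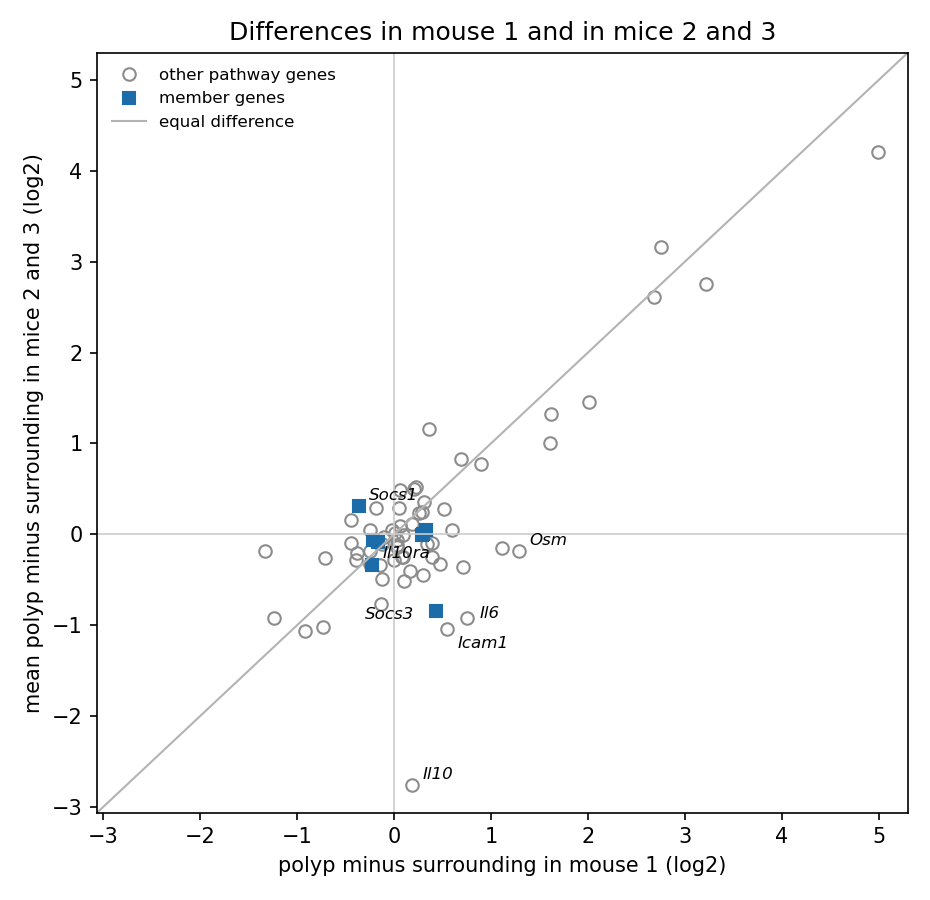
Polyp minus surrounding in mouse 1 (horizontal axis, log2) against the mean of that difference in mice 2 and 3 (vertical axis, log2) for the 8 tested member genes (squares) and 61 other pathway genes (circles). Socs3, Il6, Il10, Osm and Icam1 lie to the right of 0 and below it, and the diagonal marks equal differences.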

How the data were processed

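The authors deposited scanner intensities on a linear scale with background left in, and, per the file headers, a detection p-value beside each, rounded to 2 decimals. The authors' processed intensities, deposited as a second table, matched the quantile-normalized scanner values to within 0.005. GenomeStudio and limma 3.14.4 are named, without their roles, in the submitters' processing notes. The genome build behind the probes is not given in the sources used here. The scanner intensities were corrected with limma's normexp (background from the detection p-values, offset 16), quantile normalized and log2 transformed in R 4.3.3 with limma 3.58.1. Probes detected on fewer than 3 of the 6 arrays were removed, 12288 in all. The offset shrinks changes of dim probes. Symbols came from the platform annotation, which names 23978 of 25697 probes and gives no probe several symbols. A gene was read at its brightest tested probe.

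The model had terms for mouse and tissue, since the design text says that samples with the same mouse number come from the same animal. Deviations from the group means correlated by 0.571, 0.564 and 0.614 between samples of a mouse. lmFit and eBayes gave two-sided tests with 2 residual and 4.04 prior degrees of freedom, with Benjamini-Hochberg adjustment over all 13409 probes and a threshold of 0.05. An exact paired permutation test of 3 pairs cannot go below 0.25 and was not used. The fit was tested on simulated data. The 10 genes and all lists were chosen with earlier results of these data known. Named were all 10 genes, up to 3 rises and 3 falls a role in the pathway list, set ligands, receptor chains and kinases, and the 3 genes most like Stat3. The other names were chosen after their values were seen. Alternatives covered the background step, scaling, filter, variance prior, pairing, probe choice and leaving out each mouse.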

Additional observations from a re-analysis of the deposited data

How the results depend on the processing

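Of the 8 tested genes, 0 passed in limma in each alternative except that without mouse 1, in which Socs3 did (0 to 1 over the fits that left out a mouse, and 7 genes tested where detection on all 6 arrays was required). The Socs3 change was below 0 in all 13 alternatives, and that of Il10ra likewise (-0.38 to -0.20, limma adjusted p from 0.0864 to 0.704). In fits without 1 mouse Socs1 ran from -0.039 to 0.31, Socs2 from -0.0031 to 0.18, Il6st from 0.045 to 0.29, Osmr from 0.0029 to 0.17, Stat3 from -0.18 to -0.059 and Socs3 from -0.84 to -0.17. Without the replicate block, in a model that drops the pairing by mouse, 183 probes and 7 pathway genes passed, against 1399 and 13, and no member gene's call changed. Leaving out a mouse gave 484 to 2020 probes and 11 to 22 pathway genes, and such fits have fewer pairs and another prior. With median scaling 407 probes rose and 1000 fell, against 620 and 779, in a fit that gave all probes the same SE. The cause of these shifts was not tested. Background signal limits what can be said of Socs1, Il6ra and Il22ra1, and among the pathway genes of Il11, Jak1 and Reg3g. The same holds for Ptprc.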
